A study of Homo sapiens with 4 samples.

Results

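The FAT, Dachsous and CELSR genes encode the giant cadherins, single-chain membrane proteins with long rows of extracellular cadherin repeats. This report covers the 9 human members, FAT1, FAT2, FAT3, FAT4, DCHS1, DCHS2, CELSR1, CELSR2 and CELSR3. A region of N6-methyladenosine (m6A), a methylated adenosine in RNA, was taken when its annotated transcript or its nearest start site belonged to a member, or when it overlapped the gene on hg38. This gave 27 of the 9900 deposited regions. Of these, 25 overlapped a member gene and 2 were tied to one only through the nearest start site.

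The regions came from unedited (WT) H1, a widely used human embryonic stem cell line, with no treatment beyond the assay. The deposited set is named as primed, a state of pluripotency. RNA was analysed as 2 input libraries and 2 libraries recovered with an m6A antibody, and the deposited result was 1 intersected set of peak positions for all 4. No height, score, RNA level or depth per library came with the positions, so no value has a replicate error, no test between conditions was possible, and a missing region does not mean that m6A was absent. Cell identity could not be checked against marker levels for the same reason.

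FAT4 and DCHS1 act as a receptor and ligand pair between neighbouring cells, in a pathway tied to planar cell polarity and to growth control through Hippo signalling. FAT1, FAT2 and FAT3 are related receptors that also act in cell migration and in the shaping of neurons. CELSR1, CELSR2 and CELSR3 are the vertebrate counterparts of Flamingo. They join cadherin repeats to a receptor with several membrane passes, and they take part in planar polarity, neural tube closure and axon guidance. In messenger RNA, m6A is known to gather near stop codons and in long exons.

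Of the 9 genes, 7 held at least 1 exonic region, that is, a region whose centre was annotated to a coding exon, a UTR or an exon of a non-coding transcript. No member region was of the last kind. The 2 without were FAT2 and DCHS2. Over all 20052 protein-coding genes with a position, 2569 held an exonic region (12.8%), and over the 9611 genes at least as long as the shortest member (26213 bp) the share was 16.0%. At least 2 exonic regions were found in 6 of the 9 members, against 1.22% of all genes and 2.06% of genes at least that long. The median number of exonic regions was 2 over the members and 0 over all genes. Counting any overlap with the gene body, the same 7 members had a region, against 30.2% of all genes and 41.3% of those at least as long as the shortest member. Gene body length is a poor stand-in for the length of the spliced RNA, which was not analysed here and is large for these genes.

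Exonic centres made up 17 of the 25 regions over the genes, 15 of them in coding exons and 2 in 3' UTRs. The other 8 were intronic and lay in FAT1 and FAT3 alone, with 4 in each. Introns held 32.0% of the regions over members and 50.2% of the whole set. The whole set includes intergenic regions, which regions over a gene leave out, so these shares have unlike bases. None of the 25 regions overlapped another gene in the RefSeq table, so no annotated overlap makes their gene ambiguous.

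**Figure D1:**
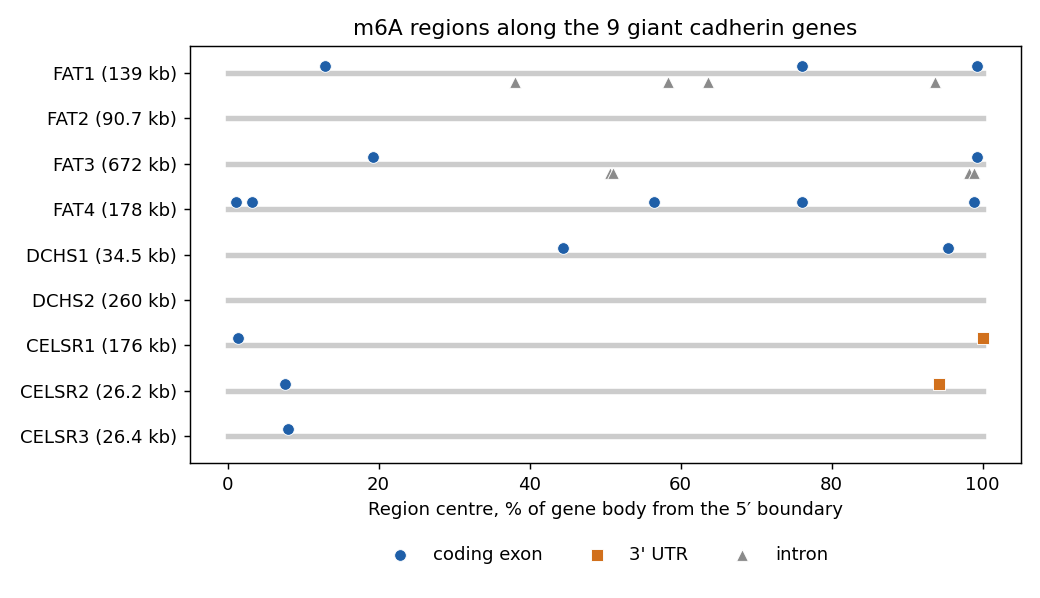
Position of the centre of each of the 25 m6A regions along the gene body (x axis, % of the gene body from its 5′ boundary) for the 9 genes (y axis, with body length in kb). Blue circles are coding-exon regions, orange squares 3' UTR regions and grey triangles, set lower, intronic regions. FAT2 and DCHS2 are empty, and 6 of the other 7 genes have a region in the last 6% of the body, CELSR3 being the exception.

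FAT4, the receptor of the pair with DCHS1, held 5 regions, the most exonic regions of any member. Only PCLO, a presynaptic scaffold gene, held more among all protein-coding genes, with 6. The first FAT4 region was also the widest exonic region of the family, 3884 bp at chr4:125315072-125318955 in exon 1 of 17. It began 117 bp inside the 5′ boundary of the gene. Its centre lay 2058 bp from that boundary but 601 bp downstream of the deposited FAT4 start site, which is therefore an inner one. Exon 1 held another region of 1531 bp (chr4:125319968-125321498), separated from the first by 1012 bp. A 916 bp region followed in exon 5 (chr4:125414994-125415909). Exon 9 held 3715 bp (chr4:125448584-125452298). The last region, in exon 17 of 17, measured 1667 bp (chr4:125490203-125491869) and ended 1063 bp before the 3′ boundary. Together they covered 11713 bp, 6.58% of a 178 kb gene, with every centre in a coding exon. Among the 139 protein-coding genes with at least 5 regions over the body, FAT4 was the only gene in which every centre was exonic in the gene itself. That cut is FAT4's own count. Genes with fewer regions, such as LCOR, ZNF638, SCAND3 and CSPG4, also had coding-exon regions alone. In 7 of the 139 (5.04%), no centre was intronic.

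By the number of regions in each of the 8 feature classes that HOMER gives, LCOR, ZNF638, SCAND3 and CSPG4 were among the genes most like FAT4. Each differed from it by 2 regions, with 3 coding-exon regions and no other. Their bodies spanned 39.1 to 164 kb, and the measure is a sum of differences in counts over 8 classes in 1 set of regions.

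DCHS1, the ligand, held 2 regions in a far shorter gene of 34.5 kb. The upstream one measured 1124 bp in exon 2 of 21 (chr11:6639923-6641046), with its centre at 44.4% of the gene body. The other measured 2849 bp in exon 21 of 21 (chr11:6621480-6624328), the widest last-exon region of the family, and ended 150 bp before the 3′ boundary. Among the 6 members with a last-exon region, DCHS1 was the only one in which it was wider than the first exonic region of the gene. The regions covered 11.5% of the gene.

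DCHS2, the paralog of DCHS1, held no region over 260 kb of chromosome 4 (chr4:154231742-154491799), and the nearest region lay 155770 bp away. At this length an empty gene is not unusual, since 55.4% of the 955 protein-coding genes at least as long as DCHS2 had a region over the body. FAT2 was likewise empty over 90.7 kb of chromosome 5 (chr5:151504092-151594819), with the nearest region 297943 bp away. Of the 3666 genes at least as long as FAT2, 50.4% had a region over the body. Whether FAT2 and DCHS2 were transcribed in these cells is not known from these files.

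FAT1, a receptor widely made in epithelia, held 7 regions, the most of any member, in a 139 kb gene. At least as many were found over 55 protein-coding genes in all. Its 3 exonic regions lay in exon 2 of 27 (2132 bp, chr4:186707757-186709888), in exon 10 (1989 bp, chr4:186619945-186621933) and in exon 27 of 27 (837 bp, chr4:186588441-186589277). The last of these was the narrowest region of the family and ended 647 bp before the 3′ boundary.

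The 4 intronic FAT1 regions carried no repeat annotation at their centres. The widest region of all members, 10413 bp in intron 2 (chr4:186668652-186679064), was one of them. The others measured 1817 bp in intron 3, 3256 bp in intron 4 and 1465 bp in intron 25. Regions covered 15.8% of FAT1, against 6.58% of FAT4.

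FAT3, the member best known from neurons, is the longest gene of the family at 672 kb and held 6 regions that covered 1.7% of it. In exon 2 of 28 lay a region of 3091 bp (chr11:92352228-92355318), 127410 bp from the 5′ boundary of the gene. The deposited distance placed its centre 1677 bp downstream of a FAT3 start site, which is therefore an inner one. Exon 28 of 28 held a region of 897 bp (chr11:92890536-92891432), 5041 bp before the 3′ boundary.

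Near the middle of FAT3, intron 2 held regions of 1283 and 925 bp that lay 1694 bp apart. Both were centred on L1PA3, a young LINE-1 element, and no other intronic region of the members was. Near the 3′ end were 2 more intronic regions, 2975 bp in intron 23 of 24, centred on an L2b repeat, and 2246 bp in intron 24 of 24. These followed each other with the exon 28 region at gaps of 804 and 1284 bp. HOMER numbered them on a transcript with 24 introns and the last region on one with 28 exons, and whether they are exonic in the latter was not tested. Repeats stood at the centres of 3 of the 8 intronic member regions, against 54.7% of all intronic regions.

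The 3 CELSR genes shared 1 arrangement at the 5′ end. Each held a wide region in exon 1, which in this family encodes much of the cadherin-repeat part. The region measured 2700 bp in CELSR1 (exon 1 of 35, chr22:46533866-46536565), 3205 bp in CELSR2 (exon 1 of 34, chr1:109249922-109253126) and 3268 bp in CELSR3 (exon 1 of 35, chr3:48659133-48662400). They began 1055, 383 and 486 bp inside the gene, in that order, and ended between 3587 and 3754 bp from the 5′ boundary. Thus the far edges of the 3 regions fell within 167 bp of each other on this scale, although CELSR1 (176 kb) is far longer than CELSR2 (26.2 kb) and CELSR3 (26.4 kb).

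At the 3′ end, CELSR1 held 1235 bp in the 3' UTR of exon 35 (chr22:46360358-46361592) and CELSR2 1260 bp in the 3' UTR of exon 34 (chr1:109273603-109274862). CELSR3 held none there. The CELSR1 region ran 816 bp past the 3′ boundary in the RefSeq table, and its centre lay just outside the gene by that table while HOMER placed it in the 3' UTR. The CELSR2 region ended 889 bp inside its boundary. No CELSR gene had an intronic region, CELSR1 included, whose 172273 bp between its 2 regions were empty. Among the 638 protein-coding genes of at least 100 kb with an exonic region, 52.7% had no intronic one.

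**Figure D2:**
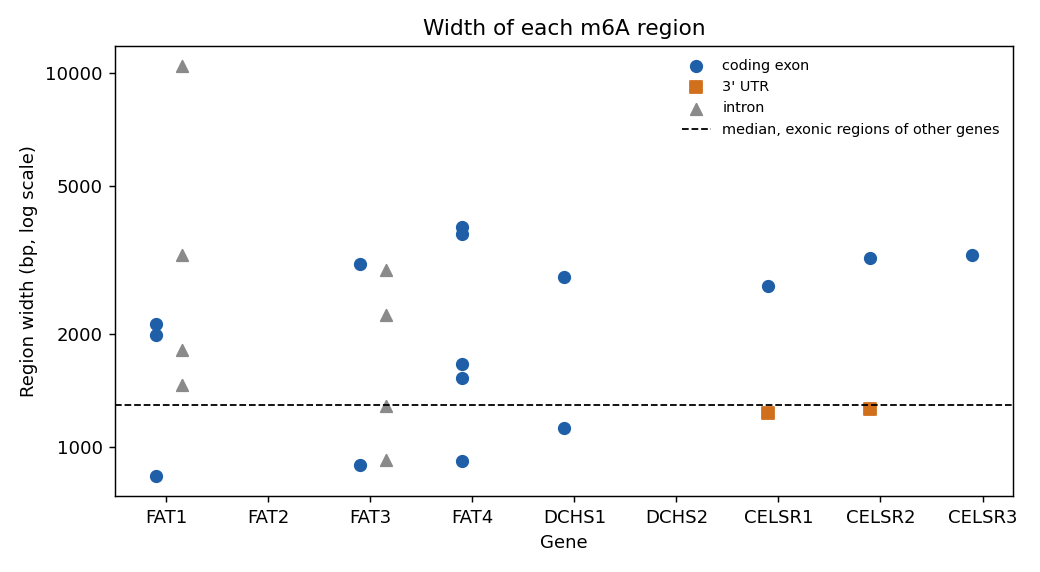
Width in bp (log y axis) of each m6A region over the 9 genes (x axis), as blue circles for coding exons, orange squares for 3' UTRs and grey triangles for introns. The dashed line marks the median of exonic regions in other genes, 1293 bp. The exon 1 regions of the CELSR genes lie at 2700 to 3268 bp, and the FAT1 intron 2 region, at 10413 bp, lies highest.

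Taken by exon number, the family's regions stood at both ends of the transcripts. All 7 members with a region had one in exon 1 or exon 2 of the annotated transcript, and 6 of them had another in the last exon. Of the 17 exonic regions, 8 were in exon 1 or 2 (47.1%), 6 in the last exon (35.3%) and 3 between (17.6%), namely FAT1 exon 10 and FAT4 exons 5 and 9. The early region was in exon 1 in FAT4 and the CELSR genes, and in exon 2 in FAT1, FAT3 and DCHS1. The members' transcripts had 17 to 35 exons. Their lowest count set the cut used below, and the window of exon 1 or 2 was not varied. The shares that follow therefore describe these regions and are not a test. Over all 514 exonic regions in transcripts with at least 17 exons, 7.98% were in exon 1 or 2 and 47.1% in the last exon. Without the members, the 497 regions fell 33 in exon 1 or 2 (6.64%), 236 in the last exon (47.5%) and 228 between (45.9%). Members therefore supplied 8 of 41 regions in exon 1 or 2. Exon length was not held fixed in these counts, and an exon that is long takes in more centres. Regions of 1 gene share their transcript, so the 17 are not independent.

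**Figure D3:**
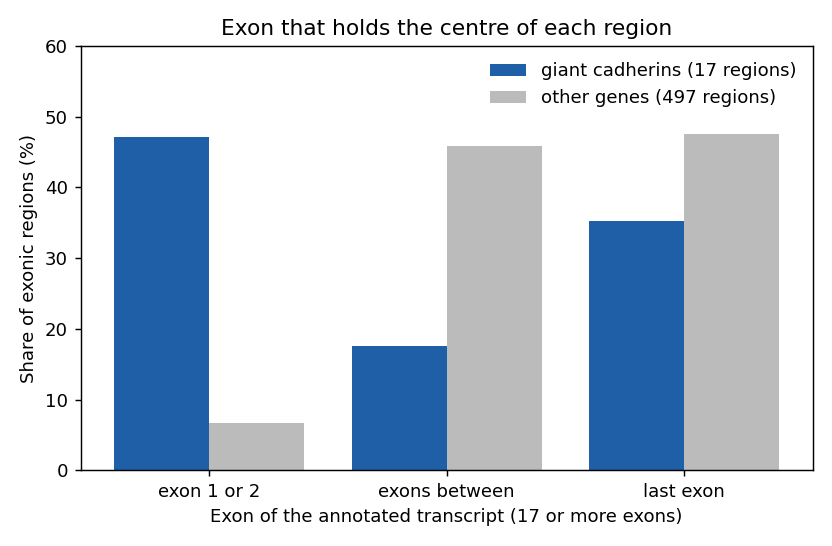
Share of exonic m6A regions (y axis, %) centred in exon 1 or 2, in the exons between, or in the last exon, for the 17 regions of the giant cadherins (blue) and the 497 regions of other genes (grey), in transcripts with 17 or more exons. Exon 1 or 2 holds 47.1% of the blue regions and 6.64% of the grey ones.

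Few other genes had regions at both ends. Of 72 genes with at least 2 exonic regions and such a transcript, 12 (16.7%) had one in exon 1 or 2 and one in the last exon. FAT1, FAT3, FAT4, DCHS1, CELSR1 and CELSR2 were 6 of the 12, and the 72 include them. The others were the chromatin genes ARID1A, CHD9 and KAT6A, the transcription factor MGA, the collagen COL18A1 and the semaphorin receptor PLXNA1. In FAT4, CELSR1, CELSR2, ARID1A, COL18A1 and PLXNA1 the early region was in exon 1, and in the rest of the 12 in exon 2. With transcripts of at least 10 exons, 20 of 120 genes had regions at both ends, 6 of them members. With at least 25 exons it was 7 of 32 genes, 4 of them members.

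The regions in exon 1 or 2 of the members were also wide. Their widths were 1124 bp in DCHS1, 1531 and 3884 bp in FAT4, 2132 bp in FAT1, 2700 bp in CELSR1, 3091 bp in FAT3, 3205 bp in CELSR2 and 3268 bp in CELSR3, a median of 2895.5 bp. The 33 such regions of other genes had a median of 1268 bp, and 6 of them were over 2 kb, as were 6 of the 8 of the members. Over 3 kb were 6 of the 41, namely those of FAT3, FAT4, CELSR2 and CELSR3 and 1 each in FREM2, a large extracellular matrix gene, and MYSM1, a histone deubiquitinase gene.

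Last-exon regions of the members were narrower. They measured 837 bp in FAT1, 897 bp in FAT3, 1235 bp in CELSR1, 1260 bp in CELSR2, 1667 bp in FAT4 and 2849 bp in DCHS1. Their median of 1247.5 bp stood beside 1237.5 bp for the 236 last-exon regions of other genes. Over all 17 exonic regions of the members the median was 1989 bp and 47.1% were over 2 kb, against 1293 bp and 20.0% over the 2824 exonic regions of other genes.

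The distance from the last-exon region to the 3′ boundary of the gene had a median of 768 bp in the members. It was 2010 bp (quartiles 777.5 and 3991 bp) over 191 last-exon regions of other genes whose strand was known. None of those 191 ran past the boundary, which the CELSR1 region did. Regions centred at a transcript end are a separate HOMER class and were not among the exonic ones. The CELSR1 strand came from a deposited start-site distance, not from the promoter table. Boundaries are those of the whole gene, so a shorter transcript may end before them.

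The 2 regions tied to members through the nearest start site alone lay outside these genes. One, 1546 bp at chr1:109236534-109238079, lay in exon 11 of 12 of SARS1 and was centred 12233 bp upstream of the CELSR2 start site. The other, 1023 bp at chr4:186890294-186891316, was intergenic and centred on an LTR12C element, 166949 bp upstream of a FAT1 start site. In turn, naming by the nearest start site gave regions of FAT1 to MTNR1A, of FAT3 to LINC02746, of FAT4 to MIR2054, of DCHS1 to TPP1, of CELSR1 to TRMU and of CELSR2 to PSRC1.

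Among the genes that act with the giant cadherins, the shares were lower than the members' 77.8%, exonic or over the gene body. Of 28 genes of Hippo and Fat-Dachsous signalling, 5 held an exonic region (17.9%), beside 12.8% of all genes. Over the gene body, 16 of the 28 had a region (57.1%), beside 30.2% of all genes. Gene length was not held fixed in these shares. FJX1, the relative of the Golgi kinase that modifies Fat and Dachsous cadherin domains in flies, held 2095 bp in its single exon. The kinase gene LATS1 (in an exon of a non-coding transcript), the YAP-binding genes AMOTL2 and PTPN14 and the scaffold gene DLG5 held 1 region each of 1343 to 1689 bp. AMOT, AMOTL1 and FRMD6 were among the 23 without an exonic region.

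Of 21 core planar polarity genes, 12 had a region over the gene body (57.1%). An exonic region was held by 6 of the 21 (28.6%), and each of these held 1. They were the WNT5A receptors ROR1 (1908 bp) and ROR2 (1223 bp), both in exon 9 of 9, the Frizzled receptor FZD6 (1115 bp, in an exon of a non-coding transcript), PRICKLE2 (1002 bp), ANKRD6 (859 bp) and VANGL1 (714 bp). DVL1, DVL2 and DVL3, which encode the Dishevelled adaptors, held none. None of these 6 genes had a region in exon 1 or 2.

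Both lists of other cadherins stood below the 12.8% of all genes, on counts too small to set them apart from it. Genes named as protocadherins, PCDH15 apart, were in neither list and were not compared here. Of 26 classical cadherin and catenin genes, 2 held an exonic region (7.69%), CDH4 (1240 bp) and CDH11 (740 bp), both in the 3' UTR of the last exon. CDH1, which encodes E-cadherin, had none. Of 14 other genes of the cadherin superfamily, CDHR1 alone held one (7.14%), 2083 bp in exon 17 of 17. CDH23, a long cadherin gene of hair cells, held none. Over the gene body, 7 of the 26 (26.9%) and 2 of the 14 (14.3%) had a region.

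Adhesion G protein-coupled receptors, which share the receptor part of the CELSR proteins, had a region over the gene body in 9 of 17 cases (52.9%). They held exonic regions in 6 of the 17 (35.3%). ADGRB1 held 2, in exons 28 and 31 of 31. ADGRL1 (2025 bp, 3' UTR), ADGRL2 (1195 bp) and ADGRA3 (1125 bp) each held 1 in the last exon. ADGRB2 (852 bp, exon 4 of 33) and ADGRV1 (819 bp, exon 74 of 90), itself a giant gene, held 1 each outside both ends. None of these 6 genes had a region in exon 1 or 2. In transcripts of at least 17 exons that window held 6.64% of the exonic regions of genes other than the members. With so few regions, having none there does not set these receptors apart from other genes. All 3 CELSR genes had a region in exon 1. These lists hold few genes, were chosen for this description and were not tested against each other.

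**Figure D4:**
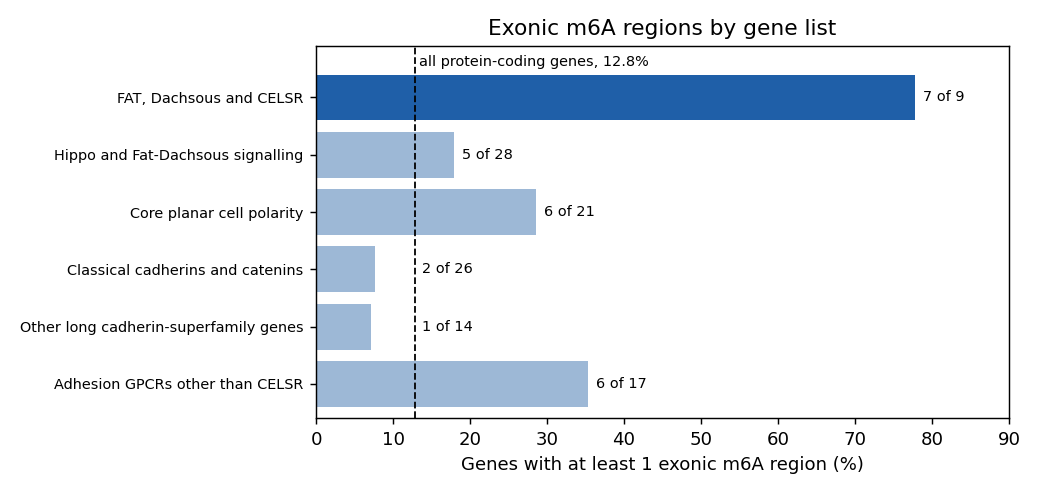
Share of genes with at least 1 exonic m6A region (x axis, %) in the FAT, Dachsous and CELSR genes (dark bar) and in 5 related gene lists (light bars), with the count at each bar and the share of all protein-coding genes, 12.8%, as a dashed line. The giant cadherins stand at 7 of 9 and the adhesion receptors at 6 of 17.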

How the data were processed

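The m6A regions of 4 H1 libraries (2 input, 2 pull-down) were deposited as 1 list of 9900 start and end positions with a HOMER annotation. HISAT2 2.2.1, Trim Galore 0.6.7, MACS2 2.2.7.1 and HOMER are listed, with hg38 as the build, per the submitters' processing notes. Their roles are not stated there, but the file header names HOMER for the annotation. Settings, strand, treatment of reads with several alignments and what was intersected are not given in the sources used here. Depth is unknown and regions carry no score.

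The annotated transcript was matched to RefSeq genes of GRCh38.p14 (8522 of 8585 regions matched). Feature and exon number are HOMER's, for the centre of each region. Strand came from the RefSeq promoter table, or from the start sites that the deposited distances imply. A transcript of at least 17 exons, the fewest among members with an exonic region, set the comparison of exon positions. Counting of overlaps with gene bodies and merging were tested on simulated regions (Python 3.11.15, pandas 2.3.3). Features, exon numbers and the matching of transcripts were not part of that test.

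The members and lists were chosen with earlier results of these data known. All 9 members were named, and of each list up to 6 genes with a region and up to 3 without. The 5 genes most like FAT4 were those with the smallest summed difference in regions over 8 feature classes, with ties settled by gene body length in place of the planned protein length; a gene that this rule takes is not reported here. Genes with regions at both ends, PCLO, FREM2 and MYSM1 were named after their values were seen. No region sequence was analysed here, so no m6A motif was searched.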

Additional observations from a re-analysis of the deposited data

How the results depend on the processing

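The count of 7 members with an exonic region remained 7 under each alternative other than regions up to 2 kb, where it was 6. With regions up to 2 kb the members held 9 exonic regions of 17, 13 regions over the gene bodies of 25 and 2 in exon 1 or 2 of 8, with a median exonic width of 1235 bp. By the nearest start site there were 9 exonic regions, 14 regions in all and a median of 2700 bp, since regions far from the start go to other genes. The median was 2416 bp with regions of at least 1 kb and 2132 bp with coding-exon centres only. The 5 related lists held 20 genes with a region, 13 with coding-exon centres only and 9 by the nearest start site. Genes with regions at both ends numbered 12, and 20 or 7 with transcripts of at least 10 or 25 exons, settings chosen after seeing the data, as were the width limits on exon 1 or 2. Of 69 alternative values, 48 were counts or shares within 1.5 times the reported one or unchanged medians, 21 were counts beyond that or medians that differed at all, and none changed direction, since none is signed. Merging within 1 kb, adding promoter and transcript end centres, and the background without olfactory receptors and keratins (13.2%) moved none of the members' counts by over 1.5 times. The background of genes with a protein as long as the members' was not run, for want of protein lengths, nor was a stricter score. No paired analysis was possible because the deposited set has no value per library, and no replicate could be left out.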
